A study of Mus musculus with 20 samples.

Results

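The 6 genes described here, Ffar4, Ffar2, Hcar1, Hcar2, Gpr84 and Sucnr1, encode G protein-coupled receptors that sense fatty acids and small metabolites. They were taken by name from the 37074 gene names on the array, and each was represented by exactly 1 probe. For 5 members the scanner software called the spot well above background on each of the 20 arrays, and these entered the test among 25619 gene names. Gpr84 was well above background on 4 of 20 arrays, fell below the minimum of 6 arrays, and is described separately.

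The arrays were hybridized with RNA of adipose tissue, taken from the visceral depot of fasted male C57bl/6J mice of the F3 generation, 1 mouse per array. Ref mice (label STD Cont, n = 6) came from the control lineage, whose parents and grandparents ate a growing diet with high-oleic sunflower oil, and received a low-fat diet. HFoleic mice (HFD Cont, n = 6) came from the same lineage and received a high-fat, high-sucrose diet. HFepa mice (HFD O3, n = 8) received that diet too and came from a lineage bred on fish oil rich in eicosapentaenoic acid (EPA), a long-chain omega 3 fatty acid. HFoleic vs. Ref therefore asks what the obesogenic diet did within 1 lineage. HFepa vs. HFoleic asks how mice of the lineages differed on that diet, and HFepa vs. Ref differs in both diet and lineage. Each group was designed with 8 mice, and those with RNA of too low integrity had been left out by the study. Mice of the omega 3 lineage on the low-fat diet were not analysed here, and the labels name no litter or cage.

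Ffar4 (GPR120) binds long-chain fatty acids, omega 3 fatty acids among them, and is known in adipocytes and macrophages. Ffar2 (GPR43) binds short-chain fatty acids such as acetate, Hcar1 (GPR81) binds lactate, and Hcar2 (GPR109A) binds the ketone body beta-hydroxybutyrate and niacin. In adipocytes the last 3 couple to inhibitory G proteins, lower cyclic AMP and so restrain lipolysis, the release of fatty acids from stored triglyceride. Sucnr1 binds succinate, an intermediate of the citric acid cycle, and Gpr84 binds medium-chain fatty acids and is known as an inducible receptor of macrophages and neutrophils.

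Levels are log2 median signals of a spot after quantile normalization, SDs are between mice, and a gene was called when its adjusted p from limma was under 0.05, with Benjamini-Hochberg adjustment over 39392 tested probes. Levels of different probes are not on 1 scale and were not compared. Median spot signal was 83 to 103 on Ref, 96 to 113 on HFoleic and 88 to 114 on HFepa arrays, 66.06% to 71.88% of the spots of an array passed as well above background, and no spot was saturated. Across all genes, HFoleic vs. Ref called 8142 genes (31.8%), HFepa vs. Ref 631 (2.46%) and HFepa vs. HFoleic 0. The 0 genes called by adjusted p in HFepa vs. HFoleic became 805 when slide was a block, 3098 with array weights and up to 1975 when 1 mouse (HFepa mouse 1) was left out, and 5327 genes had an unadjusted p under 0.05 there. The arrays lay on 3 slides scanned on 1 day, each holding mice of all groups. Transcripts of testis or epididymis, tissues next to this depot, stood out on 5 arrays. These were Ref mice 3 and 6, HFoleic mouse 5 and HFepa mice 2 and 4. The HFoleic vs. Ref differences of Ffar4, Gpr84 and Sucnr1, the number of members called and some correlations are given without them too. The group differences of Ffar2, Hcar1 and Hcar2 and the calls in lists of related and marker genes are not given without these 5 arrays. Over all genes, HFoleic vs. Ref called 4395 without these 5 arrays against 8142 with them.

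Of the 5 members tested, 1 was called in HFoleic vs. Ref against 31.8% of all genes, and that was Ffar4, which was lower. None of the 5 was called in HFepa vs. Ref against 2.46% of all genes, nor in HFepa vs. HFoleic against 0%. The median log2 fold change of the 5 was 0.07, 0.15 and 0.10 in the comparisons HFoleic vs. Ref, HFepa vs. Ref and, between the high-fat groups, HFepa vs. HFoleic, beside -0.04, -0.02 and 0.01 over all genes tested. The members did not move as a group on the high-fat diet: Ffar4 and Hcar2 had lower means, and Ffar2, Hcar1 and Sucnr1 had higher means, in both high-fat groups than in Ref. Both comparisons with Ref share the 6 Ref mice.

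**Figure D1:**
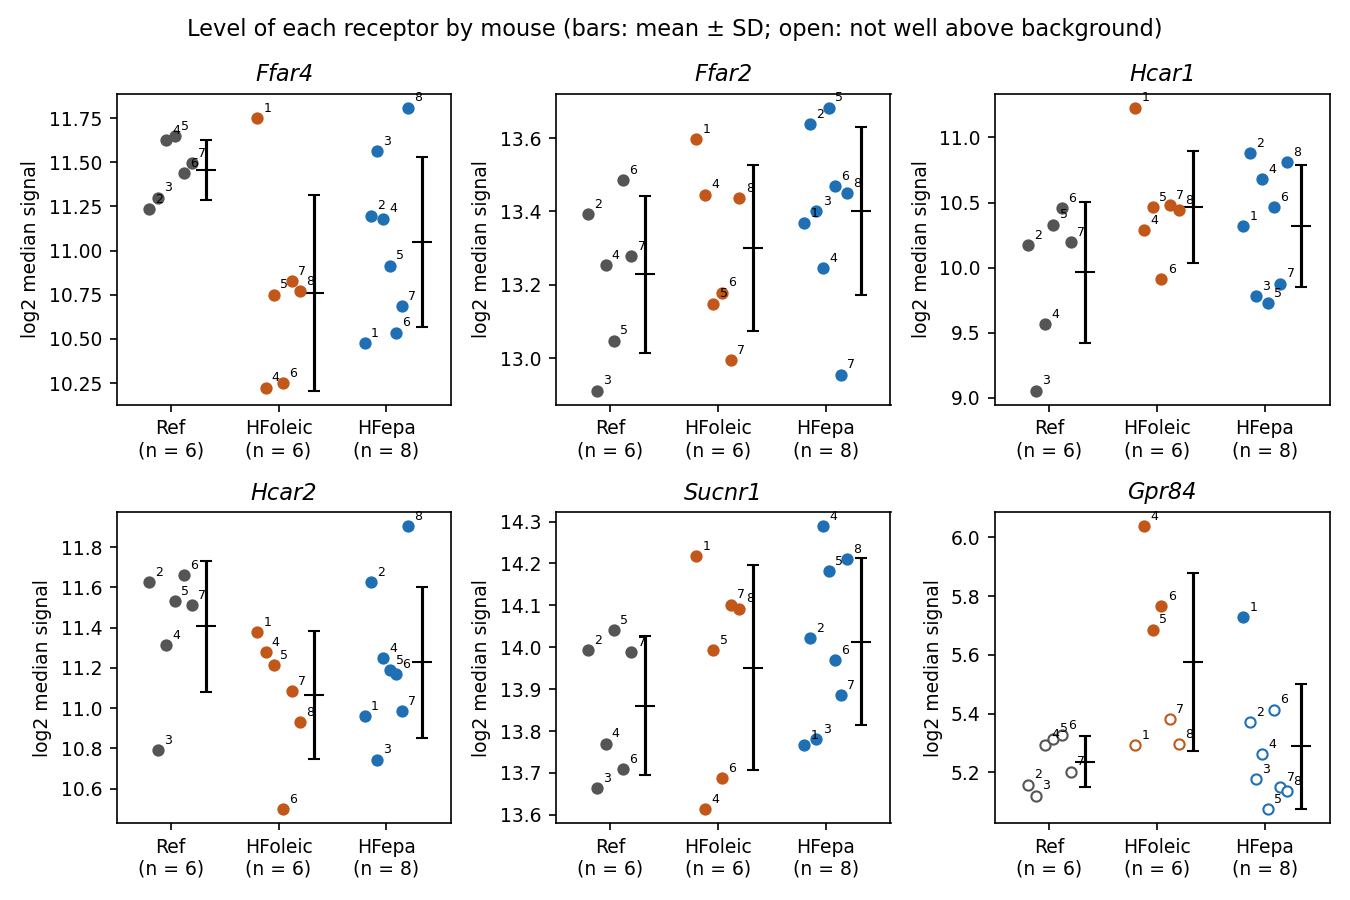
Log2 median signal of each of the 6 receptors in every mouse (points, numbered by mouse), by group, with mean ± SD; each panel has its own axis, and open points were not well above background. For Ffar4, 5 of 6 HFoleic mice lie below all 6 Ref mice while HFoleic mouse 1 lies above them, and for Gpr84 the 4 filled points belong to HFoleic mice 4, 5 and 6 and HFepa mouse 1.

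Ffar4, the receptor for long-chain fatty acids, was measured by a probe at chr19:38188370-38188429 of mm9, plus strand, annotated to NM_181748. Its sequence is shown because every Ffar4 value below is the signal of these 60 bases, and none of the 3 forward reading frames holds a stop codon.
Ffar4 probe: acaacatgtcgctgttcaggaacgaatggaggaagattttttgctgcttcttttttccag
As the called member, its promoter is shown as well, the 250 bases before the RefSeq start site (GRCm38.p6, chr19:38096829-38097078, plus strand), with matches in capitals to any of 5 motifs, searched on both strands and spelled out below it.
Ffar4 promoter: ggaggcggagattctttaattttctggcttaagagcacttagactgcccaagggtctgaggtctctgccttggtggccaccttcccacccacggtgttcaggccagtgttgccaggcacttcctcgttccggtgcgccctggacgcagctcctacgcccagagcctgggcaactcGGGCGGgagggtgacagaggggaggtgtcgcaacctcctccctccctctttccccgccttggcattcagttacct
The window held 1 match, to the GC box CCGCCC on the reverse strand, its first base 75 bases before the start site, and 32.7% of the 32851 promoter windows of the same length in the table held that motif. The nuclear receptor half-site AGGTCA was in 14% of all windows and in neither strand of this one. The same held for the TATA box, spelled TATAAA and found in 12.4% of the windows of the table. Neither the E-box CACGTG, in 6.02% of all windows, nor the C/EBP core site TTGCNNAA, in 9.56% of them, had a match here. The promoter table held windows of 5 of the 6 members.

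In the Ref mice, Ffar4 lay in a narrow band, from 11.24 to 11.65 with a median of 11.47. In the HFoleic mice it ran from 10.23 to 11.75 with a median of 10.76. In the HFepa mice it ran from 10.48 to 11.81 with a median of 11.05. HFoleic mice 4, 5, 6, 7 and 8, at 10.23, 10.75, 10.25, 10.83 and 10.77, were all below the lowest Ref mouse, whereas HFoleic mouse 1, at 11.75, was above the highest. Of the HFepa mice, 6 of 8 were below all Ref mice, mouse 3 (11.57) was within their range and mouse 8 (11.81) was above it, so the groups overlapped. On the raw scale the median spot signal was 2631 in Ref, 1821 in HFoleic and 2177 in HFepa mice, over a local background of 21 to 24.

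The mean Ffar4 level was 11.46 ± 0.17 (SD, n = 6) in Ref, 10.76 ± 0.55 (SD, n = 6) in HFoleic and 11.05 ± 0.48 (SD, n = 8) in HFepa mice. It was thus lower in HFoleic vs. Ref (log2 fold change -0.695, SE 0.238, 95% interval -1.19 to -0.20, 0.618-fold, adjusted p = 0.0317, limma). Within the slides the difference was -0.34 on slide 1, -1.35 on slide 2 and -0.74 on slide 3. In HFepa vs. Ref it was -0.41 (SE 0.22, 95% interval -0.88 to 0.05, adjusted p = 0.305), and in HFepa vs. HFoleic it was 0.28 (SE 0.22, 95% interval -0.18 to 0.75, adjusted p = 0.497), neither of which passed the test. The interval of the latter covers both 0 and the size of the difference between Ref and HFoleic mice. The call in HFoleic vs. Ref was near its threshold. It was lost without Ref mouse 4 or 5 or HFoleic mouse 4, 5, 6 or 8 (adjusted p 0.0609, 0.0615, 0.0839, 0.0512, 0.082 and 0.0512), and without the 5 arrays with testis or epididymis transcripts (-0.74, adjusted p = 0.113), and was firmest without HFoleic mouse 1 (-0.89, adjusted p = 0.0029).

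**Figure D2:**
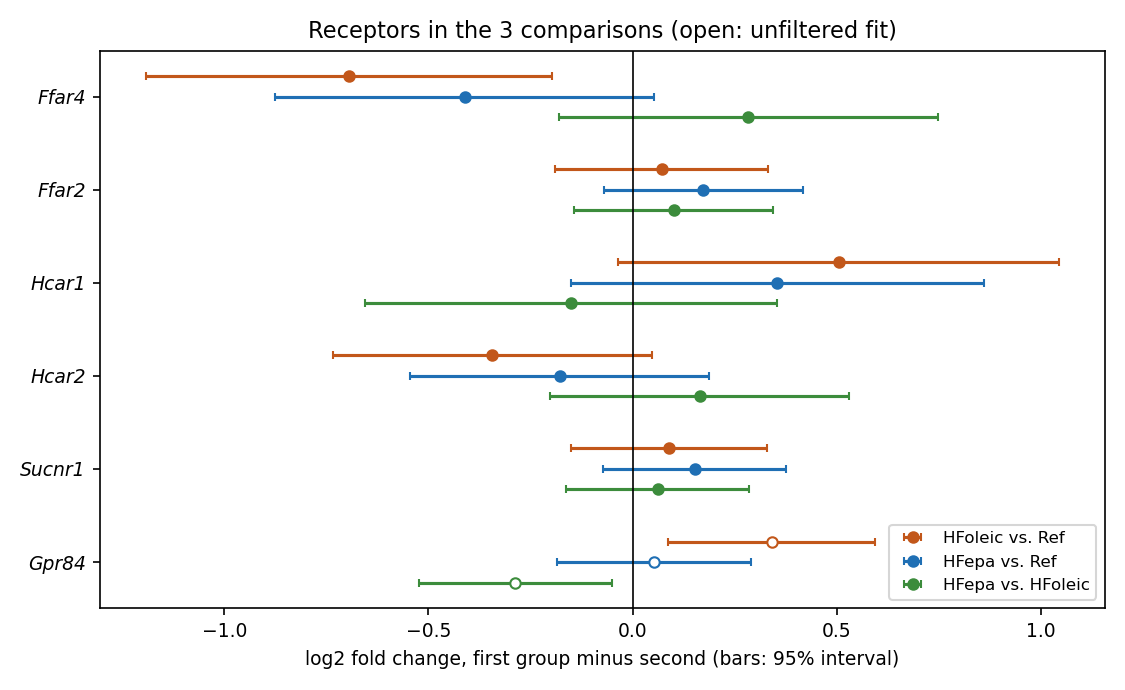
Log2 fold change of each receptor in each of the 3 comparisons between groups (points), with 95% intervals; Gpr84, drawn open, comes from a fit without the filter on dim probes. Among the 5 receptors tested, the interval of Ffar4 in HFoleic vs. Ref, from -1.19 to -0.20, is the only one that does not cross 0.

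Because the tissue is a mixture, fewer cells of a type and less RNA per cell cannot be told apart, so Ffar4 was set beside marker genes of the cells that the tissue holds. Of 12 adipocyte genes (Adipoq, Plin1, Cidec, Lipe and others), 4 were called lower and 0 higher in HFoleic vs. Ref. Their mean log2 level was 16.43 to 16.77 in Ref, 16.16 to 16.62 in HFoleic and 16.13 to 16.66 in HFepa mice. For 8 genes of lipid-associated macrophages, which gather around dying adipocytes in obesity (Trem2, Gpnmb, Spp1 and others), it was 9.56 to 10.55 in Ref, 12.36 to 13.99 in HFoleic and 10.03 to 14.33 in HFepa mice, with all 8 called higher in HFoleic vs. Ref and 1, Fabp5, in HFepa vs. Ref. For 11 general macrophage genes, 8 of 11 were called higher in HFoleic vs. Ref. Over all genes, 15.2% were called higher and 16.6% lower in HFoleic vs. Ref, and 1.04% higher in HFepa vs. Ref. The 4 of 12 adipocyte genes are near the 31.8% of all genes called in either direction. They were Lipe, Pnpla2, Cfd and Retn, whereas Adipoq (log2 fold change -0.03), Cidec (0.02) and Fabp4 (0.02) hardly differed in HFoleic vs. Ref. The adipocyte genes thus did not move as 1 set. None of these 3 lists had a gene called in HFepa vs. HFoleic, where 0% of all genes were called. The median log2 fold change there was 0.091 for the adipocyte, -2.015 for the lipid-associated macrophage and -0.798 for the general macrophage list.

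Over all mice, Ffar4 was higher where the adipocyte genes were higher and lower where the macrophage genes were higher, although within Ref mice the general macrophage list showed little relation. Over the deviations of the 20 mice from their group means, Ffar4 correlated with the adipocyte list at r = 0.86 (rho = 0.88), with the lipid-associated macrophage list at r = -0.74 (rho = -0.85) and with the general macrophage list at r = -0.80 (rho = -0.70). The permutation p within groups (two-sided, 100000 draws, 15 relations of 5 members and 3 lists) was 1e-05 for the adipocyte list by r and by rho, the smallest that the draws can give, 0.00054 and 2e-05 for lipid-associated macrophages, and 0.00019 and 0.00151 for macrophages. The adjusted p by r was 0.00015, 0.0027 and 0.00142 respectively. Within Ref, HFoleic and HFepa mice, r was 0.73, 0.94 and 0.85 with the adipocyte list, -0.96, -0.91 and -0.76 with the lipid-associated macrophage list, and -0.14, -0.96 and -0.82 with the general macrophage list. Without HFoleic mouse 1 and HFepa mouse 8, the mice farthest from the median, r was 0.83, -0.79 and -0.71. Within slides 1, 2 and 3 (8, 6 and 6 arrays), r was 0.88, 0.95 and 0.74 with the adipocyte list, -0.68, -0.88 and -0.87 with the lipid-associated macrophage list, and -0.85, -0.89 and -0.10 with the macrophage list, so the last relation did not hold on slide 3. Without the 5 arrays with testis or epididymis transcripts it was 0.87, -0.74 and -0.82 with the adipocyte, lipid-associated macrophage and macrophage lists (n = 15). These relations were added after the data had been seen, all values of a mouse come from 1 array, and the part of cell composition in the lower Ffar4 level was not tested.

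Most of the extreme mice, though not all, lay along these relations. HFoleic mouse 1, the only HFoleic mouse with Ffar4 above the Ref range, had the highest adipocyte level (16.62) and the lowest lipid-associated macrophage level (12.36) of its group. HFepa mice 1 and 6, lowest for Ffar4 among HFepa mice at 10.48 and 10.54, had the lowest adipocyte levels (16.13 and 16.32) and the highest lipid-associated macrophage levels (14.33 and 13.59) of theirs. HFoleic mice 4 and 6, lowest of all 20 for Ffar4, stood at 13.99 and 13.96 for that macrophage list. HFepa mouse 8, highest of all 20 for Ffar4, had neither the highest adipocyte level (16.61) nor the lowest lipid-associated macrophage level (10.96) of its group. Its general macrophage level (10.97) was the lowest of all 20. HFepa mouse 5, with Ffar4 at 10.92, had the second lowest level of the lipid-associated macrophage list in its group (10.33).

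**Figure D3:**
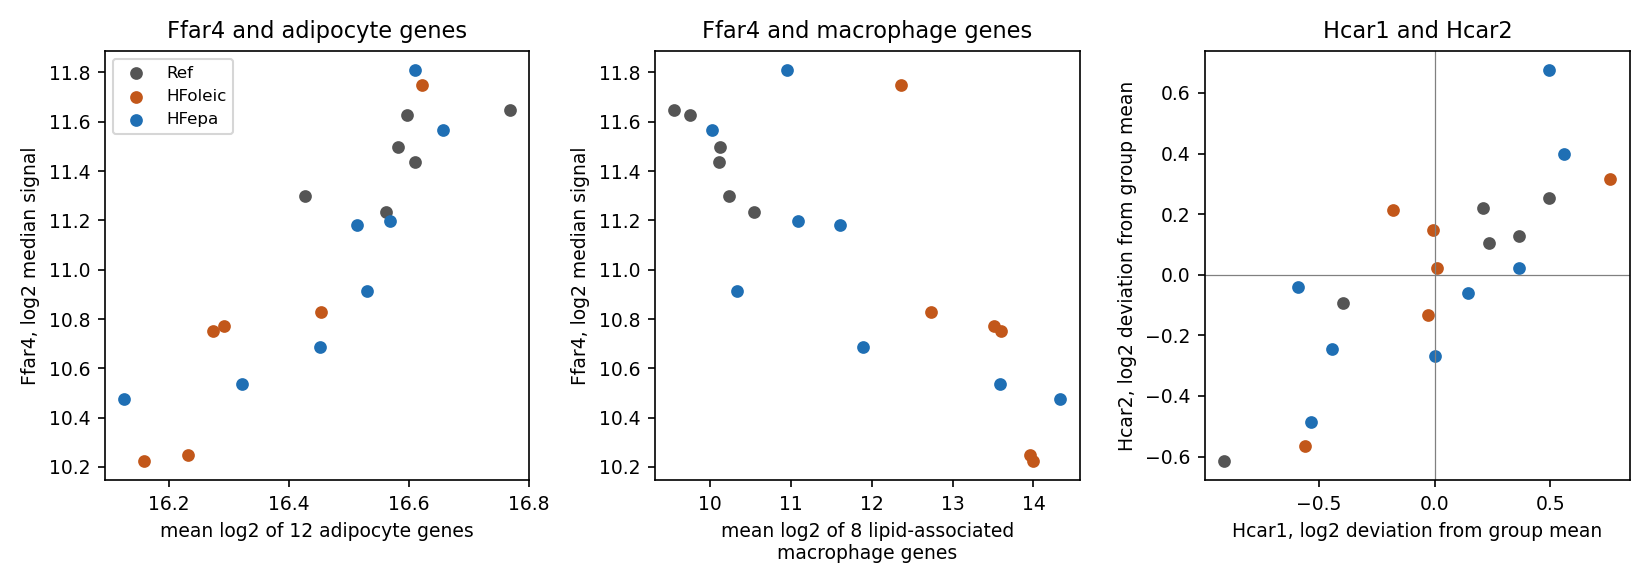
Left and middle: Ffar4 log2 median signal against the mean log2 level of 12 adipocyte genes and of 8 lipid-associated macrophage genes, 1 point per mouse, coloured by group. Right: deviations of Hcar1 and Hcar2 from their group means, in log2 units, where the points rise together (r = 0.82, n = 20).

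Hcar1, the lactate receptor, ran from 9.06 to 10.46 (median 10.19) in Ref, from 9.91 to 11.23 (median 10.45) in HFoleic and from 9.73 to 10.88 (median 10.39) in HFepa mice. Ref mouse 3 was the lowest of all 20 and HFoleic mouse 1 the highest, and the 3 groups overlapped. The means were 9.96 ± 0.54 (SD, n = 6), 10.47 ± 0.43 (SD, n = 6) and 10.32 ± 0.47 (SD, n = 8). The difference was 0.51 in HFoleic vs. Ref (SE 0.26, 95% interval -0.04 to 1.05, adjusted p = 0.148, limma), 0.36 in HFepa vs. Ref (adjusted p = 0.431) and -0.15 in HFepa vs. HFoleic (95% interval -0.66 to 0.36, adjusted p = 0.776). Within slides the HFoleic vs. Ref difference was 0.91, 0.03 and 0.46.

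Hcar2, the receptor for beta-hydroxybutyrate, ran from 10.79 to 11.66 (median 11.52) in Ref, from 10.50 to 11.38 (median 11.15) in HFoleic and from 10.74 to 11.90 (median 11.18) in HFepa mice. All 6 HFoleic mice were below the Ref mean, yet only HFoleic mouse 6 was below every Ref mouse, because Ref mouse 3 was low here too. The means were 11.41 ± 0.32 (SD, n = 6), 11.06 ± 0.32 (SD, n = 6) and 11.23 ± 0.38 (SD, n = 8). The difference was -0.34 in HFoleic vs. Ref (SE 0.19, 95% interval -0.73 to 0.05, adjusted p = 0.176, limma), -0.18 in HFepa vs. Ref (adjusted p = 0.61) and 0.17 in HFepa vs. HFoleic (95% interval -0.20 to 0.53, adjusted p = 0.636). With array weights, which give less weight to arrays that deviate more, Hcar2 was called in HFoleic vs. Ref (-0.43, adjusted p = 0.044).

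Hcar1 and Hcar2, of which neither passed in a comparison between groups, rose and fell together from mouse to mouse within the groups. The genes are neighbours on chromosome 5, with no gene between them in the RefSeq table, and their probes lie 13.6 kb apart on the minus strand, Hcar2 at chr5:124313731-124313790 and Hcar1 at chr5:124327350-124327409 of mm9. Their deviations from the group means correlated at r = 0.82 (rho = 0.82, n = 20), with a permutation p within groups of 3e-05 for r and 7e-05 for rho and adjusted values of 0.0003 and 0.0007 over 10 pairs of members. The r was 0.96 within Ref, 0.76 within HFoleic and 0.77 within HFepa mice, and 0.77 over all groups without Ref mouse 3 and HFoleic mouse 1. Ref mouse 3 is also 1 of the 5 arrays with testis or epididymis transcripts, without which r was 0.75 (n = 15). Within slides 1, 2 and 3 it was 0.84, 0.27 and 0.90, so the relation was weak on the 6 arrays of slide 2. Some genes on other chromosomes correlated more strongly over these deviations, such as Fnta with Hcar2 (r = 0.894) and Esyt1 with Hcar1 (r = 0.836). They were picked from all tested genes as the most alike. Whether the pair of Hcar1 and Hcar2 stands out among all genes was not tested. None of the other 9 pairs passed by r after adjustment, but 8 of the 10 did when arrays were centred on the median instead of quantile normalized. Among those 9, Ffar4 and Sucnr1 (r = 0.57, adjusted p = 0.0528; rho = 0.63, adjusted p = 0.0445), Hcar1 and Sucnr1 (r = 0.57, adjusted p = 0.0528) and Hcar2 and Sucnr1 (r = 0.55, adjusted p = 0.0528) came closest, and Ffar2 and Sucnr1 had the smallest r, 0.16.

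Ffar2, the receptor for short-chain fatty acids, passed no test between groups. Its probe lies at chr7:31604149-31604208 of mm9 on the minus strand. It ran from 12.91 to 13.49 (median 13.27) in Ref, from 12.995 to 13.60 (median 13.31) in HFoleic and from 12.96 to 13.68 (median 13.43) in HFepa mice, so the ranges largely coincided. The means were 13.23 ± 0.21, 13.30 ± 0.23 and 13.40 ± 0.23 (SD, n = 6, 6 and 8). The difference was 0.07 in HFoleic vs. Ref (95% interval -0.19 to 0.33, adjusted p = 0.705, limma), 0.17 in HFepa vs. Ref (-0.07 to 0.42, adjusted p = 0.425) and 0.10 in HFepa vs. HFoleic (-0.14 to 0.35, adjusted p = 0.67). Its correlation with the 3 cell lists was between -0.16 and 0.18.

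Sucnr1, the succinate receptor, passed no test between groups either. Its probe lies at chr3:59891281-59891340 of mm9 on the plus strand. It ran from 13.66 to 14.04 (median 13.88) in Ref, from 13.61 to 14.22 (median 14.04) in HFoleic and from 13.77 to 14.29 (median 13.996) in HFepa mice. The means were 13.86 ± 0.17, 13.95 ± 0.25 and 14.01 ± 0.20 (SD, n = 6, 6 and 8). The ranges overlapped, but 3 of 6 HFoleic and 3 of 8 HFepa mice were above every Ref mouse. Of the HFoleic mice, 1 was below all Ref mice. The difference was 0.09 in HFoleic vs. Ref (95% interval -0.15 to 0.33, adjusted p = 0.595, limma), 0.15 in HFepa vs. Ref (-0.07 to 0.38, adjusted p = 0.45) and 0.06 in HFepa vs. HFoleic (-0.16 to 0.29, adjusted p = 0.795). Over the deviations from group means, Sucnr1 correlated with the adipocyte list at r = 0.61 (rho = 0.62). With the macrophage list it correlated at r = -0.60 (rho = -0.65). Both had an adjusted permutation p of 0.0288 by r, and 0.0237 and 0.0151 by rho. With the lipid-associated macrophage list r was -0.41 (rho = -0.54), which did not pass (adjusted permutation p = 0.154 by r and 0.0651 by rho). Within Ref, HFoleic and HFepa mice, r was 0.616, 0.832 and 0.417 with the adipocyte list. With the macrophage list it was 0.225, -0.905 and -0.652, so that relation did not hold in Ref mice. Without the 5 arrays with testis or epididymis transcripts, r was 0.62 with the adipocyte list and -0.69 with the macrophage list (n = 15). Neither relation held on slide 3, where r was -0.20 and -0.01, against 0.86 and -0.82 on slide 1 and 0.74 and -0.64 on slide 2. Hcar1, Hcar2 and Ffar2 had no relation with the 3 lists that passed by r after adjustment, the nearest being Hcar2 with the macrophage list (r = -0.50, adjusted p = 0.103).

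Gpr84, the receptor for medium-chain fatty acids, was not well above background in any of the 6 Ref mice, and was so in HFoleic mice 4, 5 and 6 and in HFepa mouse 1. Its probe lies at chr15:103138670-103138729 of mm9 on the minus strand. The raw signal was 34.5 to 40.0 in Ref, 40.0 to 65.0 in HFoleic and 32.0 to 52.5 in HFepa mice, over a local background of 21 to 25. Normalized without the filter on dim probes, the level was 5.12 to 5.33 (median 5.25) in Ref, 5.29 to 6.04 (median 5.53) in HFoleic and 5.08 to 5.73 (median 5.22) in HFepa mice. All 6 HFoleic mice were above the Ref mean and 4 of 6 above every Ref mouse. The means were 5.58 ± 0.30 (SD, n = 6) in HFoleic and 5.24 ± 0.09 (SD, n = 6) in Ref mice. Counting each Ref array at the higher of its own signal and the lowest signal well above background on that array, these means differed 1.2-fold. The lowest signal was taken over all probes, so 1.2-fold is not a lower limit for Gpr84. That figure takes no account of the spread between mice, and 3 of the 6 HFoleic arrays behind it were not well above background themselves. The unfiltered fit gave 0.34 in HFoleic vs. Ref (SE 0.12, adjusted p = 0.0529, limma), which did not pass, 0.05 in HFepa vs. Ref (adjusted p = 0.878) and -0.29 in HFepa vs. HFoleic (SE 0.11, adjusted p = 0.227). The HFoleic vs. Ref value passed with normexp background correction (0.22, adjusted p = 0.0364), a slide block (0.37, 0.0343), array weights (0.33, 0.0397) and an intensity trend with robust eBayes (0.34, 0.0481), and was 1.28 (adjusted p = 0.052) on the background-subtracted signal of the scanner software. It did not pass with median centring (0.23, adjusted p = 0.22), nor without the 5 arrays with testis or epididymis transcripts (0.31, adjusted p = 0.233), of which HFoleic mouse 5 is 1.

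The 4 arrays on which Gpr84 was well above background were the 4 with the highest mean level of the lipid-associated macrophage list among all 20. That level was 13.60 to 14.33 on these 4 and 9.56 to 13.59 on the other 16. The edge was thin, since HFepa mouse 6 (13.59) and HFoleic mouse 8 (13.52) were next, with Gpr84 at 5.41 and 5.30 and not well above background. The pattern was noticed in the values and is given without a test.

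**Figure D4:**
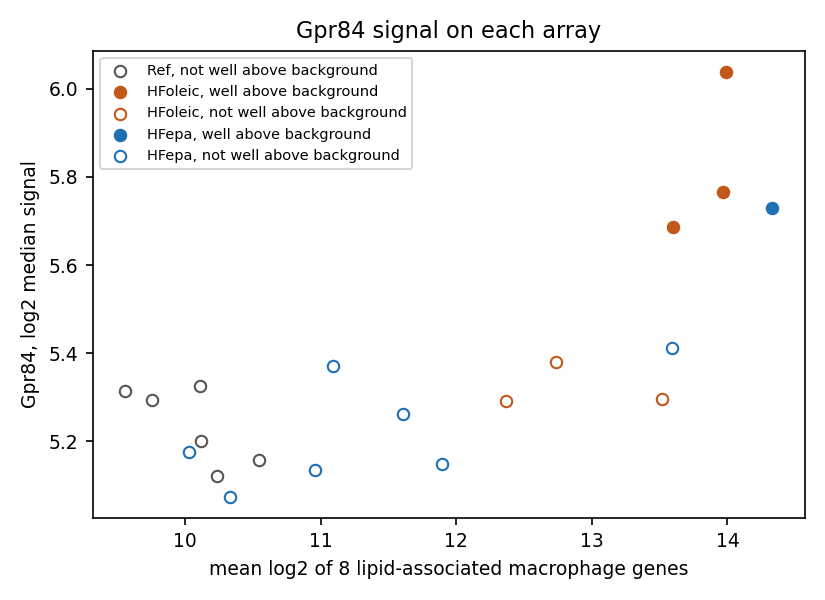
Gpr84 log2 median signal (unfiltered fit) against the mean log2 level of 8 lipid-associated macrophage genes, 1 point per mouse, filled where the scanner software called the Gpr84 spot well above background. The 4 filled points, from 5.69 to 6.04, lie at the right end, at 13.60 or higher on the macrophage axis.

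Genes whose level was most like each member over the 20 arrays are named as a description. They are the 4 with the highest Pearson r among all tested genes, and group differences enter into r. For Ffar4 these were Med9os (r = 0.95), Dus2 (0.94), Mtus1 (0.93) and Sox6os (0.93), with r of 0.90 to 0.94 after group means were removed. For Hcar1 they were Ywhag (0.88), Esyt1 (0.86), Steap4 (0.85) and Mrps28 (0.83). For Hcar2 they were Fnta (0.87), Tmem177 (0.84), Dcaf5 (0.84) and Gm33509 (0.84). For Sucnr1 they were Cd1d1 (0.86), Bcl2l2 (0.85), Slc2a4, the insulin-responsive glucose transporter (0.83), and Vcl, the cytoskeletal protein vinculin (0.82). For Ffar2 they were 4 transcripts of chromosome 4, ENSMUST00000120050 and ENSMUST00000177565 (both 0.81), Gm13298 (0.79) and 4933409K07Rik (0.78). No gene was among the 4 of more than 1 member.

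More than 1 kind of receptor for other metabolites rose in HFoleic mice. Of 16 such receptors on the list, 11 were tested, and 6 of 11 were called higher and 0 lower in HFoleic vs. Ref, where 15.2% of all genes were called higher and 16.6% lower. The list was chosen with earlier results of these data known, so the count is no test of these receptors as a group. The receptors for adenosine rose, Adora1 by 0.91 (SE 0.20, adjusted p = 0.0021, limma), Adora2b by 0.93 (SE 0.22, adjusted p = 0.00404) and Adora3 by 0.64 (SE 0.17, adjusted p = 0.00685), while Adora2a stood at -0.37 (adjusted p = 0.102). P2ry14, the receptor for UDP-glucose, rose by 0.69 (adjusted p = 0.00502), and the remaining called genes were Gpr132 and Gpr35. Gpr35 was well above background on only 7 of 20 arrays, close to the minimum of 6, so its call is the weakest part of the count. In the same comparison 8 of 11 macrophage and 8 of 8 lipid-associated macrophage genes were called higher, and their part in these changes was not tested. The median log2 fold change was 0.47 in HFoleic vs. Ref and 0.26 in HFepa vs. Ref, where 0 of 11 were called. Ffar3, the other short-chain fatty acid receptor, stood at -0.10 (adjusted p = 0.266) in HFoleic vs. Ref. Ffar1, the other long-chain receptor, was well above background on 2 arrays and was not tested.

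Of 10 hormone receptors that drive or restrain lipolysis, 3 were called lower and 1 higher in HFoleic vs. Ref, where 16.6% of all genes were called lower and 15.2% higher, and 0 in either comparison with HFepa mice. The count of 4 of 10 is near the 31.8% of all genes and is no result about these receptors as a group. Adrb1 and Adrb3, receptors that start lipolysis on catecholamines, fell by 0.84 and 0.89 on the log2 scale (adjusted p = 0.0119 and 0.019, limma). Ptger3, a prostaglandin E2 receptor that restrains lipolysis, rose by 0.80 (adjusted p = 0.0455).

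**Figure D5:**
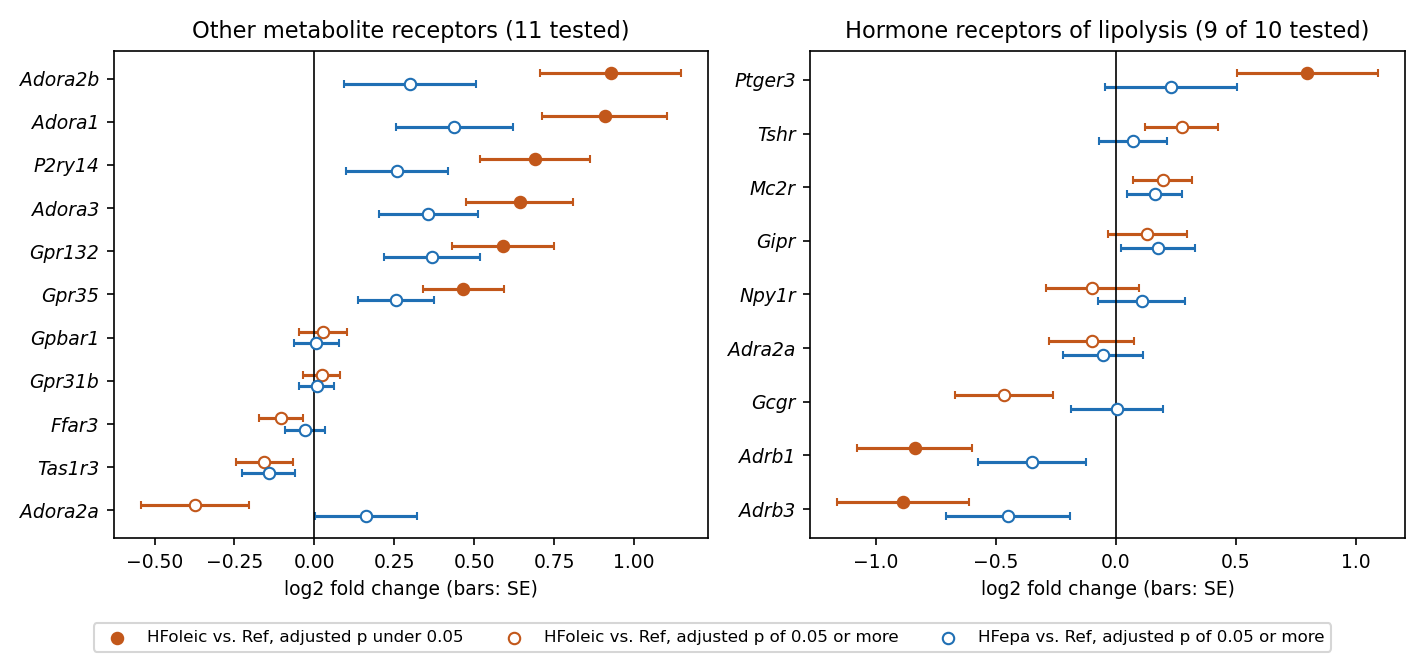
Log2 fold change (points) with SE (bars) of the 11 tested metabolite receptors that are not members, left, and of 9 of the 10 hormone receptors of lipolysis, right, in HFoleic vs. Ref and HFepa vs. Ref. Filled points passed an adjusted p of 0.05: on the left 6 lie to the right of 0, and on the right Adrb1 and Adrb3 lie to the left and Ptger3 to the right.

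Downstream of the receptors, 16 genes of G proteins, arrestins and receptor kinases were tested, of which 4 were called higher and 1 lower in HFoleic vs. Ref. That count is close to the 31.8% of all genes called, so the genes are named only as values. The 4 were Grk5 (0.34, adjusted p = 0.0107, limma), Grk6 (0.22, 0.0116), Arrb2 (0.38, 0.019) and Map3k7 (0.18, 0.0195), which encode receptor kinases, beta-arrestin 2 and the kinase TAK1. The 1 that fell was Gnaq (by 0.22, adjusted p = 0.0201), named because it was the only one. Gnai1 and Gnai2, inhibitory G protein subunits, stood at -0.24 and 0.20 and did not pass (adjusted p = 0.203 and 0.139). Of 20 genes of the cyclic AMP pathway and lipolysis, 2 were called higher and 7 lower. Lipe, hormone-sensitive lipase, fell by 1.19 (adjusted p = 0.000518), Abhd5, the co-activator of adipose triglyceride lipase, by 0.78 (0.0027) and Adcy4 by 0.84 (0.00326), and Adcy7, an adenylyl cyclase, rose by 1.83 (0.00259). Lipe, Pnpla2 and Plin1 are in the adipocyte list too.

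Among the genes that make, break down or carry the ligands, counts are again to be read against the 31.8% of all genes called in HFoleic vs. Ref. For lactate, 1 of 7 was called higher in HFoleic vs. Ref, Emb, a partner of lactate transporters (1.38, adjusted p = 0.00128, limma), and 1 lower, the transporter Slc16a7 (-0.48, adjusted p = 0.0423), while Ldha stood at 0.19 (adjusted p = 0.145). For succinate, 2 of 9 were called higher and 3 lower. Slc13a3, a transporter of succinate, rose by 1.52 (adjusted p = 0.00199) and Sucla2 by 0.52 (0.00278), and Suclg2 fell by 0.59 (0.00419) and the succinate dehydrogenase subunit Sdha by 0.45 (0.00433). For ketone bodies, 1 of 6 was called higher, Oxct1 (0.40, adjusted p = 0.0241), and 2 lower, among them Acat1 (-0.31, 0.0157). For medium-chain fatty acids, 1 of 6 was called, Acsm3, a medium-chain acyl-CoA synthetase, which fell by 3.62 (0.0813-fold, adjusted p = 0.000735). None of the genes of these 4 lists, of the lipolysis list or of the G protein list was called in HFepa vs. Ref or in HFepa vs. HFoleic, where 2.46% and 0% of all genes were called.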

How the data were processed

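RNA labelled with Cy3 was hybridized to Agilent SurePrint G3 mouse arrays of 1 colour. The authors obtained spot intensities with Agilent Feature Extraction (10.10.1.1 per the labels), and the deposited median intensity is linear and not normalized. A second table deposited by the authors gives log2 values of 38168 probes, filtered and quantile normalized by them. Each of its columns correlated at 0.9997 or higher with the log2 of that array's median signal. It was used as an alternative for the other 5 members, without Gpr84.

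From the spot files, control spots were dropped, and spots marked as outliers were set to missing. Of 56605 probes, 39392 were well above background on at least 6 of 20 arrays and were kept. The log2 of the median signal was quantile normalized, spots of a probe were averaged, and group means were fitted to all arrays together with lmFit and eBayes of limma 3.58.1 in R 4.3.3. A gene with several probes was represented by its brightest. No probe was tested below the filter, except in a fit without it (37074 gene names), used for Gpr84. Correlations of members were computed in NumPy 2.4.6 on deviations from group means, with 100000 permutations within groups. Groups came from the sample titles. Nothing in the labels names litters, so litter could not be taken into account. The p-values rest on the variation between mice within groups and treat these mice as independent. All HFepa mice came from the same lineage, so their comparisons with the other groups take no account of variation between lineages. The scripts were tested on simulated data.

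Members and gene lists were chosen with earlier results of these data known. The genes named were the members, the 4 genes most alike to each, and, from each list of related genes, any called in HFepa vs. HFoleic and up to 4 called genes of smallest p in HFoleic vs. Ref. A few others are given for context (Gpr35, Gpr132, Gnaq, Acat1 and genes that did not pass) and were chosen after their values were seen. Some genes that the rule would name are not reported here. Probe coordinates are those of the files (mm9), and promoter sequence and gene order are from RefSeq, assembly GRCm38.p6. Marker lists of other cells were checked too. Their counts in HFoleic vs. Ref stand beside 31.8% of all genes called. For neutrophils 1 of 6 was called higher and 1 lower, and for dendritic cells 3 of 5 higher and 1 lower. For mast cells 1 of 6 was called lower, for adipose progenitors 1 of 6 higher and for testis 1 of 4 lower. The count was 0 for T cells, B cells, endothelial cells, mesothelial cells and epididymis. Alternatives were the scaling, background correction, filter, authors' table, marked spots, slide and replicate blocks, array weights, intensity trend, groups fitted, probe rule and leaving out each mouse.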

Additional observations from a re-analysis of the deposited data

How the results depend on the processing

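Over the single-gene values, 584 of 606 recomputed values kept their direction and their side of the threshold. That count says little of the call itself, since Ffar4 in HFoleic vs. Ref was the only value called at first. All 8 values that lost a call were of Ffar4 in that comparison. It was called in 14 of 20 fits without 1 mouse and lost its call in 2 of 14 other alternatives. The number of members called in HFoleic vs. Ref, 1 of 5, was 0 with a replicate block, 0 without the 5 arrays with testis or epididymis transcripts (an alternative chosen after seeing the data), 2 with array weights (Ffar4 and Hcar2), and 0 to 1 when 1 mouse at a time was left out, and it was 0 in both other comparisons throughout. The replicate block put Ffar4 at -0.79 (adjusted p = 0.065, limma). The labels do not say whether equal replicate numbers pair the mice. Same-numbered mice correlated from -0.475 to 0.142 over 4 pairs in HFoleic vs. Ref, and 0 of the 4 correlated best with its own number. In HFepa vs. HFoleic they correlated from -0.586 to 0.56 over 6 pairs, and 1 correlated best with its own number. Correlations of so few pairs cannot exclude a pairing. Under the other alternatives that keep all mice, the adjusted p of Ffar4 stayed under the threshold, and its log2 fold change over all alternatives other than leaving out 1 mouse ran from -0.79 to -0.65. Of the 10 pairs of members, 8 passed with median centring against 1 with quantile normalization, and the cause was not tested. The direction turned for 5 values: Gpr84 in HFepa vs. Ref was -0.016 with median centring and -0.010 without HFepa mouse 1, Sucnr1 in HFoleic vs. Ref was -0.004 without the 5 arrays, Sucnr1 in HFepa vs. HFoleic was -0.005 without HFoleic mouse 4, and Hcar1 in HFepa vs. HFoleic was 0.002 without HFoleic mouse 1. Leaving out 1 mouse at a time, these 3 values ranged from -0.010 to 0.084 (Gpr84), -0.005 to 0.115 (Sucnr1 in HFepa vs. HFoleic) and -0.262 to 0.002 (Hcar1). For Gpr84 in HFoleic vs. Ref, leaving out 1 mouse at a time gave 0.25 to 0.40, called in 4 of 20 fits, and the replicate block gave 0.35 (adjusted p = 0.112). The authors' table gave no value of Gpr84.

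Over all genes, the count called in HFoleic vs. Ref fell from 8142 to 5380 with the replicate block and 4395 without the 5 arrays. In HFepa vs. Ref it went from 631 to 17 with the replicate block, 108 with only the groups compared, 415 with no filter, 1017 with array weights, 0 without the 5 arrays and 100 to 1788 when 1 mouse was left out. In HFepa vs. HFoleic it was 0 to 1975 when 1 mouse was left out. The number of mice limits the precision of all values, and for Gpr84 the signal lies close to background.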
